A study of Mus musculus with 9 samples.

Results

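The genes of cytochrome P450 enzymes, UDP-glucuronosyltransferases (UGTs) and cytosolic sulfotransferases were followed in Hepa 1-6, an established hepatoma line of mouse. All protein-coding genes whose symbol begins with Cyp and a digit, with Ugt1 or Ugt2, or with Sult and a digit were taken as members, with Cyp51 and Cyp4a14 left out. They are 138 of the 53647 genes listed: 98 P450 genes, 19 UGT genes and 21 sulfotransferase genes. The study set 3 groups of 3 samples against each other: Usp5 knockout cells, made with a lentiviral CRISPR guide against Usp5, Ythdf1 knockout cells, made with Ythdf1-specific CRISPR/Cas9/EGFP plasmids, and control cells, labelled with a control guide. All 9 samples are of the same line, and the labels name no other allele or agent. Usp5 encodes a deubiquitinase, and Ythdf1 encodes a cytoplasmic reader of N6-methyladenosine in mRNA. Per the labels, the knockout lines were single-cell clones picked by serial dilution and checked by immunoblot, and how many clones stand behind the samples of a group is not stated. A difference between groups can therefore not be told apart from a difference between clones or between the 2 ways of delivering the guides.

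P450 enzymes are haem proteins of the endoplasmic reticulum and mitochondria that insert oxygen into their substrates. Those of families 1 to 3 mostly act on drugs and other foreign compounds, family 4 on fatty acids and leukotrienes, and the others on cholesterol, bile acids, steroid hormones and vitamin D. UGTs join glucuronic acid, and sulfotransferases join sulfate, to the oxidised product or directly to hormones and phenols, which makes these compounds soluble enough to be excreted. In adult liver many of these genes rank among the most abundant transcripts, under the control of the liver factors HNF4A and CEBPA and of the receptors AHR, PXR (Nr1i2) and CAR (Nr1i3).

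The libraries held between 24760877 and 42989715 counts, and within-group Pearson correlations of log2 values over genes lay between 0.983 and 0.995, against 0.951 to 0.976 across groups. Groups are compared below in CPM, counts scaled by library size and composition. Genes are compared in TPM, transcript levels that also take gene length into account. Levels and sums given in TPM for each group lack the scaling for composition. Their differences between groups can therefore depart from those in CPM. Usp5 averaged 115 ± 6.6 CPM in Usp5 knockout cells, 224 ± 20 CPM in Ythdf1 knockout cells and 214 ± 26 CPM in control cells (SD, n = 3 each). Ythdf1 averaged 202 ± 6.8 CPM in Usp5 knockout cells, 48.3 ± 2.2 CPM in Ythdf1 knockout cells and 189 ± 7.1 CPM in control cells. Each target was thus lowest in the libraries labelled with its guide, with transcript remaining. The labelled cell type was checked against 14 hepatocyte-lineage markers, of which 12 were tested. Alb averaged 854 TPM in Usp5 knockout, 1022 TPM in Ythdf1 knockout and 580 TPM in control cells. Hnf4a averaged 292 TPM, 252 TPM and 222 TPM in the same groups. Apob averaged 27.7, 35.0 and 28.8 TPM and Fgb 22.0, 48.1 and 22.8 TPM there. Apoa1, Apoh and Apoc3 stayed under 1 TPM in all groups. In Ythdf1 knockout cells every tested marker except Apoa1 and Krt8 rose against control (edgeR adjusted p under 0.05). Alb rose 2.11-fold and Fgb 2.53-fold (adjusted p = 0.000125 and 6.28e-06). In Usp5 knockout cells only Alb and Hnf4a rose and only Serpina1b fell (adjusted p = 0.00479, 0.000562 and 0.00422). The bile duct markers summed to 612 to 783 TPM in Usp5 knockout libraries, 314 to 354 TPM in Ythdf1 knockout libraries and 492 to 517 TPM in control libraries. The members of that list went different ways: in Ythdf1 knockout cells Spp1 fell (log2 fold change -0.67; edgeR adjusted p = 0.000509), while Epcam (1.49; adjusted p = 3.59e-06) and Krt19 (0.53; adjusted p = 0.0147) rose. In Usp5 knockout cells all 3 rose (0.42, 1.79 and 2.28; adjusted p = 0.0163, 1.51e-06 and 3.88e-06). Krt7 (0.79; adjusted p = 0.000159) and Sox9 (0.98; adjusted p = 0.0129), the other tested markers of that list, rose there too. Neither was called in Ythdf1 knockout cells against control (adjusted p = 0.498 and 0.0971). The stellate cell and fibroblast list summed to 1099 to 1604 TPM in Usp5 knockout, 999 to 1238 TPM in Ythdf1 knockout and 989 to 1366 TPM in control libraries. Nearly all of that was Dcn, at 1304 ± 265 TPM, 1089 ± 130 TPM and 1127 ± 207 TPM in the same groups (SD, n = 3 each), which was called against control in neither knockout. The part of these marker levels in the results below was not tested. The leukocyte list summed to at most 17.6 TPM and the endothelial list to at most 0.657 TPM in any library.

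Which members remained expressed in the hepatoma line was asked first. Of the 138 members, 43 had 0 counts in all 9 libraries, 49 had 1 to 9 counts in total, and 46 had at least 10. A count of 0 in 1 library allows a level of up to 3 counts, or 0.0698 to 0.121 CPM depending on the library, and this limit covers counting error only. Enough counts for a test were present for 29 members: 21 P450 genes, 5 UGT genes and 3 sulfotransferase genes. At a mean of at least 1 TPM, 19 members were expressed in Usp5 knockout cells, 22 in Ythdf1 knockout cells and 19 in control cells, with 17 in all 3 groups and 23 in at least 1.

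**Figure D1:**
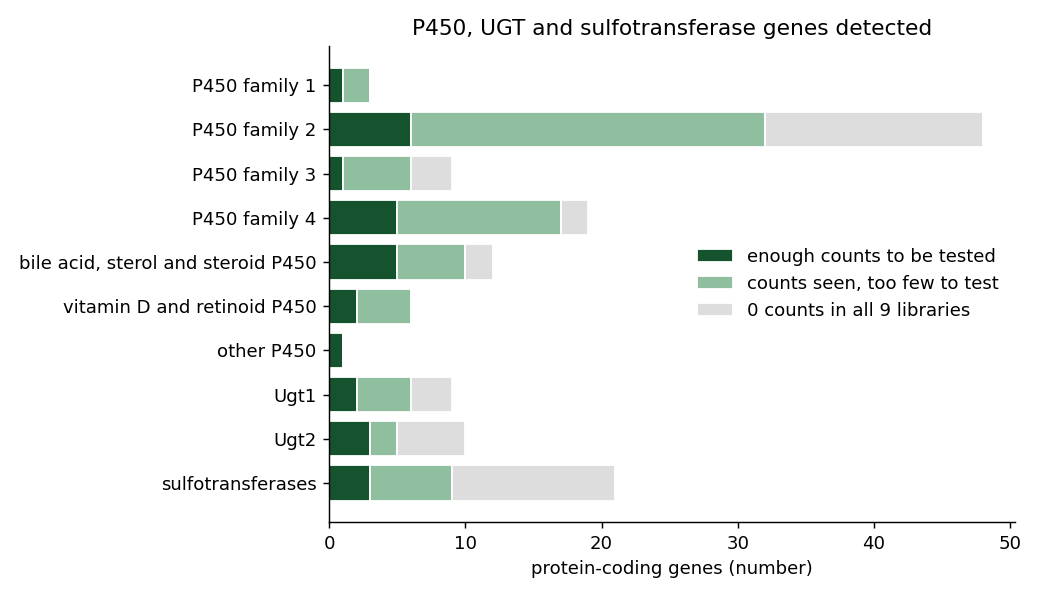
Number of protein-coding members by role, split into those with enough counts to be tested, those with some counts and those with 0 counts in all 9 libraries. Of 48 genes of P450 family 2, 6 were tested and 16 had 0 counts, whereas 5 of 19 genes of family 4 were tested and 2 had 0 counts. Cyp2r1 is counted with the vitamin D and retinoid genes and not with family 2.

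The enzymes that dominate adult mouse liver were among those near 0. Cyp8b1, the sterol hydroxylase that sets cholic acid synthesis, the bile acid and steroid sulfotransferase Sult2a1, and Sult3a1 had 0 counts in all 9 libraries. Cyp7a1, the rate-limiting enzyme of bile acid synthesis, and Cyp2b10, a classical CAR target, had 1 count each, both in control libraries, and Cyp3a11, a classical PXR target, had 1 count in a Ythdf1 knockout library. Cyp2e1, which oxidises ethanol, had 6 counts in Usp5 knockout libraries and 0 in the others. Cyp2a5, Cyp2f2 and Ugt2b5 each averaged at most 0.0975 TPM in any group. Cyp2c29 reached at most 0.144 TPM, Cyp2d9 at most 0.202 TPM, and Ugt1a1, the bilirubin-conjugating UGT, at most 0.0457 TPM. Cyp1a2, the liver partner of Cyp1a1, averaged 0.228 TPM in Usp5 knockout cells, 0.108 TPM in Ythdf1 knockout cells and 0.0878 TPM in control cells. All of these lay below the 1 TPM used as the mark of expression, and none was tested. Ugt2b1, the remaining major liver enzyme looked up, had enough counts for a test. It also lay below 1 TPM, with 0.487 TPM in Usp5 knockout, 0.153 TPM in Ythdf1 knockout and 0.236 TPM in control cells.

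The genes lie in clusters of related copies, and expression was uneven between clusters. Neighbouring members less than 1000000 bases apart formed 11 loci of at least 3 members, which held 101 members and 17 of the tested ones, whereas the 37 members outside these loci held 12 of the tested ones. All 8 Sult2a genes on chromosome 7 had 0 counts, and 0 of 8 genes of the Cyp3a cluster on chromosome 5 were tested, while Cyp3a13, which stands apart from that cluster, was. In the locus on chromosome 7 that holds the Cyp2a, Cyp2b and Cyp2s genes, 1 of 13 was tested, Cyp2s1. In the locus of Ugt2 and Sult1 genes on chromosome 5, 4 of 13 were tested, and in the Cyp4f locus on chromosome 17, 3 of 8. Chromosomes and gene order were taken from a GENCODE annotation of another mouse build by gene identifier, which matched all 138 members.

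A few genes carried most of the summed level. The members summed to 387 TPM, 406 TPM and 459 TPM in the Usp5 knockout libraries, to 348 TPM, 351 TPM and 354 TPM in the Ythdf1 knockout libraries, and to 324 TPM, 327 TPM and 301 TPM in the control libraries. Cyp2s1 and Cyp1a1 together made up 61.3% to 65.7% of that sum in Usp5 knockout libraries, 53.7% to 54.1% in Ythdf1 knockout libraries and 40.5% to 46.1% in control libraries. The remaining members summed to 140 to 178 TPM, 160 to 163 TPM and 162 to 194 TPM in the same order of groups, and these ranges overlap between every pair of groups. In control cells Cyp2s1 came first with 99.95 ± 11.7 TPM (SD, n = 3), followed by Cyp20a1 with 38.6 ± 5.62 TPM, Cyp1a1 with 36.3 ± 8.92 TPM and Cyp4f16 with 26.2 ± 5.04 TPM. Cyp20a1 and Cyp1a1 did not differ beyond their spread, and Cyp2s1 stood above both in every control library. Ugt2b34 at 19.4 ± 1.44 TPM and Cyp27a1 at 14.3 ± 1.95 TPM came next.

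**Figure D2:**
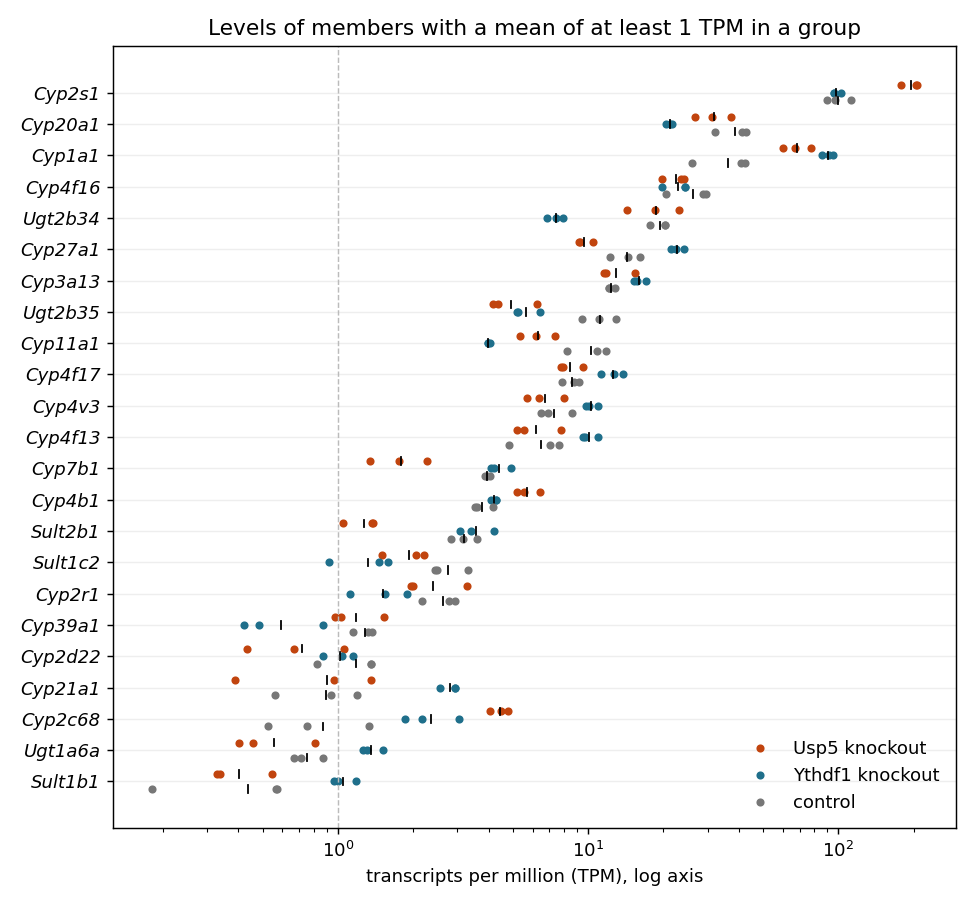
Level of the 23 members with a mean of at least 1 TPM in at least 1 group, on a log axis of TPM; each point is a library, the short bar is the mean of 3 libraries, and the dashed line marks 1 TPM. Cyp2s1 lies at 178 to 207 TPM in Usp5 knockout, 95.8 to 103 TPM in Ythdf1 knockout and 89.9 to 113 TPM in control cells.

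The regulatory sequence next to 4 of the members is shown because the results turn on them: Cyp2s1 and Cyp1a1 as the most abundant foreign-compound P450 genes, Cyp27a1 as the gene that moved in opposite directions, and Cyp2j6 as the gene with no counts in Usp5 knockout cells. Each run is a RefSeq promoter window of 300 bases in assembly GRCm38.p6, from 250 bases before to 50 bases after the annotated start, read 5′ to 3′ on the gene's strand. Capitals mark exact matches, on either strand, to any of 3 motifs. The core of the xenobiotic response element, to which AHR binds, reads GCGTG. The motif searched for a TATA box was TATAAA. A GC box was searched for by the letters GGGCGG.
Cyp2s1, chr7:25816476-25816775, minus strand: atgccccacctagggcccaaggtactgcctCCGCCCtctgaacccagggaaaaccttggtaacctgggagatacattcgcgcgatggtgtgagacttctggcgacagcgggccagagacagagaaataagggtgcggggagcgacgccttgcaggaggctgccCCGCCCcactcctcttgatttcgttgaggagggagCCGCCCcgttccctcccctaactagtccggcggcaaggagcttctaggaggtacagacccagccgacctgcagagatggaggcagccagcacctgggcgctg
Cyp1a1, chr9:57697363-57697662, plus strand: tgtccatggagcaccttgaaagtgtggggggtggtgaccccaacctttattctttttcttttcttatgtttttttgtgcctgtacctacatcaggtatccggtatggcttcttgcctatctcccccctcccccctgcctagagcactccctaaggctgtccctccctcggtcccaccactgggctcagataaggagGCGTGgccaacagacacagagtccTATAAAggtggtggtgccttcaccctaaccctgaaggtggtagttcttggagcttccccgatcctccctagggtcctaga
Cyp27a1, chr1:74713285-74713584, plus strand: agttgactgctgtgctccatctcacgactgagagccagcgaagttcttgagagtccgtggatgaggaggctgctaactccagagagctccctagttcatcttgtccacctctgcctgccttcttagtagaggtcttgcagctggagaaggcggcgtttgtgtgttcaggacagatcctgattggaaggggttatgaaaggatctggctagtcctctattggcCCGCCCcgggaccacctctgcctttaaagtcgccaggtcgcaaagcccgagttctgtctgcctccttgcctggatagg
Cyp2j6, chr4:96553602-96553901, minus strand: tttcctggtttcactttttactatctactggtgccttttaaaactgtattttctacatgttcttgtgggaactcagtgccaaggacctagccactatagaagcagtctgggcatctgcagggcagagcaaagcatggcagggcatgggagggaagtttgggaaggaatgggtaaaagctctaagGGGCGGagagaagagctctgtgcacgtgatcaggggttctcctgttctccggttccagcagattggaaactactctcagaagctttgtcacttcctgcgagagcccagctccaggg
The Cyp1a1 window holds 1 xenobiotic response core, which begins 54 bases before the start, and 1 TATA box, which begins 30 bases before it. The Cyp2s1 window holds 3 GC boxes and no match to the other motifs, and the Cyp27a1 and Cyp2j6 windows hold 1 GC box each. Such matches are common. The xenobiotic response core occurred in 32.4% of all 32851 windows and in 8 of the 22 tested members that have one. The TATA box occurred in 13.6% of windows and in 2 of the 22, Cyp1a1 and Cyp2c38, and the GC box in 35.7% and in 9 of the 22. No 2 matches overlap in these 4 windows, and a match is a description of the letters only.

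How each knockout changed the members was tested with edgeR's quasi-likelihood test over all 13661 genes with enough counts, and genes with a Benjamini-Hochberg adjusted p under 0.05 count as called. In Usp5 knockout cells 11 of the 29 tested members were called against control, 4 higher and 7 lower, beside 19.8% of all genes called (9.96% higher and 9.8% lower). That background of 2700 genes became 4371 without control replicate 3, 1736 without control replicate 1, 1494 without control replicate 2 and 1626 without Usp5 knockout replicate 2, while 11 members were called in each of these. In Ythdf1 knockout cells 19 of 29 were called against control, 12 higher and 7 lower, beside 46.5% of all genes (23.7% higher and 22.8% lower). Between the knockouts, with Usp5 knockout over Ythdf1 knockout, 23 of 29 were called, 7 higher and 16 lower, beside 48.5% of all genes (23.3% higher and 25.2% lower). The member shares were 37.9%, 65.5% and 79.3%. The median log2 fold change of the tested members was -0.10 in Usp5 knockout cells, 0.42 in Ythdf1 knockout cells and -0.71 between the knockouts, against medians of all tested genes of -0.012, 0.021 and 0.00028. Setting Cyp2j6 to a floor of 3 counts over the Usp5 knockout group left it below the median, so the medians could not move. No test of the members as a list was made. With the filter raised to at least 1 CPM in at least 3 libraries, 22 members were tested and 9, 16 and 16 were called, beside 21.2%, 50.6% and 52.0% of all genes under that filter. The comparisons against control share the control libraries and all 3 comparisons share libraries in pairs, so their calls are not independent. Separate cultures are not named in the labels, so the p-values rest on a spread between samples that could be technical only. In bulk RNA, fewer cells that express a gene and less of its RNA per cell cannot be told apart.

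Among the tested members, 26 were called in at least 1 comparison, and Cyp4f16, Cyp2r1 and Cyp2d22 in none. Against control, Cyp1a1, Cyp2c68 and Cyp4b1 were higher in both knockouts, Cyp11a1, Cyp2j6 and Ugt2b35 were lower in both, and Cyp27a1 was lower in Usp5 knockout cells and higher in Ythdf1 knockout cells. With a change of at least 2-fold also asked, 8 members were called in Usp5 knockout cells, 3 higher and 5 lower, beside 5.64% of all genes (2.29% higher and 3.35% lower). In Ythdf1 knockout cells 9 were called under this rule, 6 higher and 3 lower, beside 9.15% of all genes (4.41% higher and 4.74% lower). Between the knockouts 13 were, 2 higher and 11 lower, beside 12.1% (5.34% higher and 6.78% lower).

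**Figure D3:**
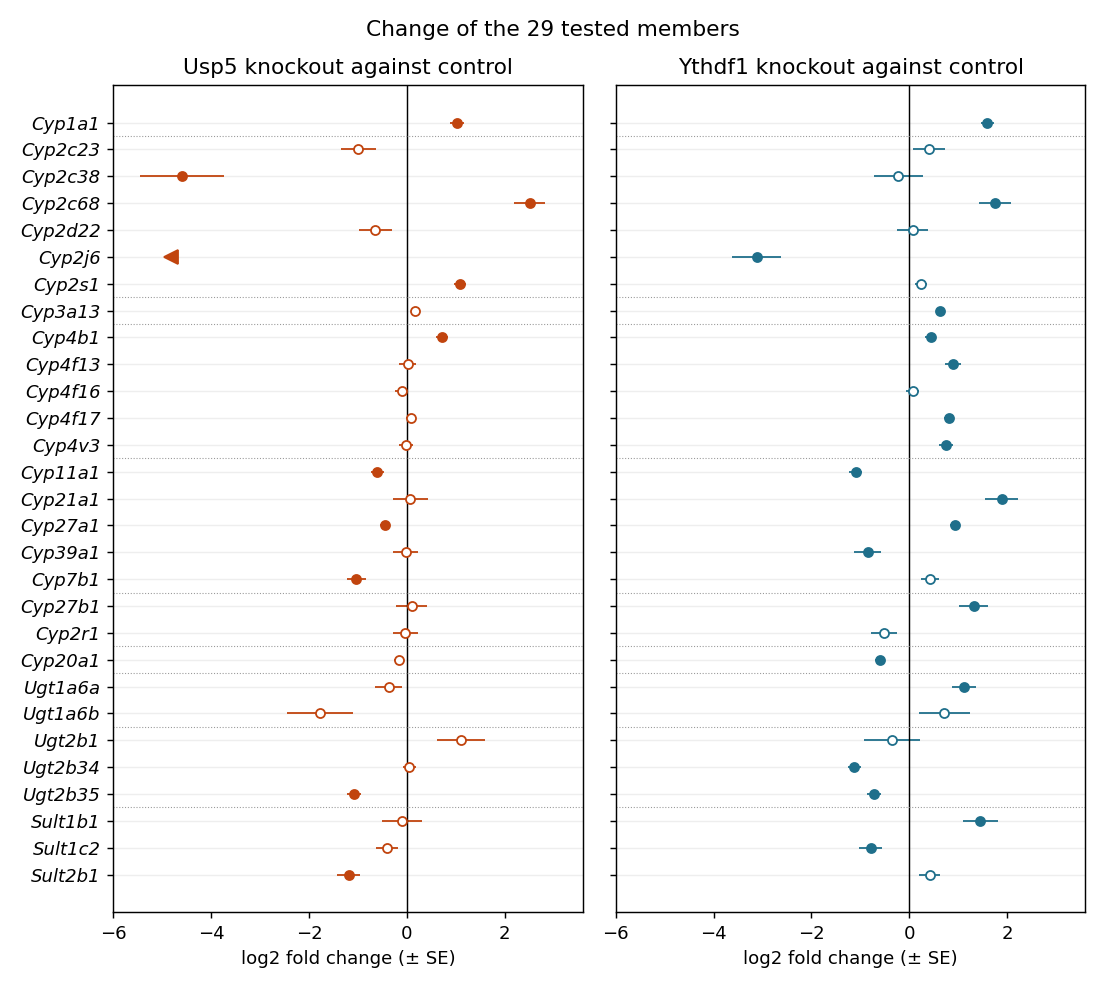
Log2 fold change of the 29 tested members, by role from P450 family 1 at the top to sulfotransferases at the bottom, in Usp5 knockout (left) and Ythdf1 knockout cells (right) against control; bars are standard errors. Filled points passed an adjusted p of 0.05 and open points did not. The triangle marks Cyp2j6, which had 0 counts in Usp5 knockout cells and is drawn at its bound. Most points of family 4 lie near 0 on the left and to the right of 0 on the right, as in Cyp4f17 with 0.81 in Ythdf1 knockout cells.

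Of P450 families 1 to 3, 8 members were tested, not counting Cyp2r1, which is grouped with the vitamin D genes. Cyp1a1, which oxidises polycyclic aromatic hydrocarbons and is the classical transcript induced through AHR, had 98.0, 89.5 and 101 CPM in Usp5 knockout cells, 146, 132 and 150 CPM in Ythdf1 knockout cells and 52.1, 53.3 and 35.8 CPM in control cells. The 3 groups did not overlap, and all Ythdf1 knockout libraries lay above all Usp5 knockout libraries. It rose 2.04-fold in Usp5 knockout cells (log2 fold change 1.03 ± 0.14, SE; edgeR adjusted p = 0.000575) and 3.02-fold in Ythdf1 knockout cells (1.60 ± 0.14; adjusted p = 2.3e-05). Usp5 knockout cells lay below Ythdf1 knockout cells (-0.57 ± 0.14; adjusted p = 0.00612). Its relative in the same chromosome 9 locus, Cyp1a2, had 22 counts in Usp5 knockout, 10 in Ythdf1 knockout and 9 in control libraries, and Cyp1b1, also an AHR target, had 17, 16 and 19; neither was tested.

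Cyp2s1, a P450 known from epithelia outside the liver, was the most abundant member in every group. It had 265, 314 and 272 CPM in Usp5 knockout cells, 156, 162 and 155 CPM in Ythdf1 knockout cells and 127, 116 and 158 CPM in control cells. The Usp5 knockout libraries stood above all 6 others, while Ythdf1 knockout and control libraries overlapped. It rose 2.12-fold in Usp5 knockout cells (log2 fold change 1.09 ± 0.12; edgeR adjusted p = 0.000145). Its level there also exceeded that in Ythdf1 knockout cells (0.85 ± 0.12; adjusted p = 0.000242). The Ythdf1 knockout did not pass against control (adjusted p = 0.12), but without control replicate 3, the highest control, it did (log2 fold change 0.37, adjusted p = 0.00684), and likewise with a gene length correction (0.30, adjusted p = 0.0495). Cyp2s1 shares 5.3% of its exon bases with a noncoding gene on the opposite strand, and the sources used here do not state whether counting used strand.

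The Cyp2c genes went different ways. Cyp2c68 had 3.90, 4.37 and 4.12 CPM in Usp5 knockout cells, 2.26, 3.10 and 1.93 CPM in Ythdf1 knockout cells and 0.445, 0.627 and 1.21 CPM in control cells, with no overlap between groups. It rose 5.71-fold in Usp5 knockout cells (log2 fold change 2.51 ± 0.32; edgeR adjusted p = 0.000408) and 3.36-fold in Ythdf1 knockout cells (1.75 ± 0.32; adjusted p = 0.00161). The difference between the knockouts (0.76 ± 0.29; adjusted p = 0.048) lost its call when any Usp5 knockout library, Ythdf1 knockout replicate 1 or 3 or control replicate 2 was left out (adjusted p = 0.062 to 0.148). Cyp2c68 also lost this call with a replicate block (adjusted p = 0.0579) and with a correction for GC content and gene length (adjusted p = 0.0509). Its transcript is 98.0% identical to that of Cyp2c40 over its whole length, so that reads of the 2 genes cannot be told apart with certainty. Cyp2c38, an arachidonic acid epoxygenase of mouse, had 1 count in Usp5 knockout libraries, 23 in Ythdf1 knockout libraries and 38 in control libraries. Scaled to library size, it was 32.7 times lower in Usp5 knockout than in control cells (exact 95% interval 5.52 to 1325, counting error only; edgeR adjusted p = 0.00457) and 28.1 times lower than in Ythdf1 knockout cells (4.56 to 1156; adjusted p = 0.00298). The 1 count came from Usp5 knockout replicate 1. Without that library both calls held (adjusted p = 0.0185 and 0.00952). Set to a floor of 3 counts over the group, the level was 6.12-fold and 5.25-fold lower, with the other group's counts taken as exact. Its nearest relative, Cyp2c39, is 93.6% identical over 63.4% of the transcript. Cyp2c23, an epoxygenase known from rat kidney, had 0.376, 0.385 and 0.347 CPM in Usp5 knockout cells, 0.999, 0.957 and 0.982 CPM in Ythdf1 knockout cells and 0.667, 0.464 and 1.17 CPM in control cells. Its level was lower in Usp5 than in Ythdf1 knockout cells (-1.40 ± 0.36; adjusted p = 0.00888), and neither knockout passed against control (adjusted p = 0.077 and 0.334 for Usp5 and Ythdf1). Usp5 knockout cells were called lower than control with library sizes alone (-1.07; adjusted p = 0.0491) and without control replicate 2 (-1.27; adjusted p = 0.0463).

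Cyp2j6, of a subfamily that epoxidises fatty acids, was listed at 0 in all 3 Usp5 knockout libraries. It had 0.111, 0.153 and 0.0378 CPM in Ythdf1 knockout cells and 0.778, 0.743 and 1.25 CPM in control cells, from 0, 8 and 98 counts in Usp5 knockout, Ythdf1 knockout and control libraries. Set to a floor of 3 counts over the group, Usp5 knockout cells had 28.1-fold less than control cells (edgeR adjusted p = 0.000451). They had 3.25-fold less than Ythdf1 knockout cells (adjusted p = 0.0161). Both values take the counts of the other group as exact, so the true fold can be smaller. Without Usp5 knockout replicate 1, the deepest library, these values were 15.8 and 1.83. In Ythdf1 knockout cells Cyp2j6 fell by 3.12 on the log2 scale against control (± 0.50, SE; adjusted p = 0.00135). All control libraries lay above the other 6, whereas the level in Ythdf1 knockout replicate 3, from 1 count, is below what 0 counts allow in each Usp5 knockout library. The other 7 genes of the Cyp2j cluster on chromosome 4 had too few counts to be tested. Cyp3a13, the Cyp3a gene outside the cluster, had 19, 19.9 and 22.8 CPM in Usp5 knockout cells, 27.3, 29.8 and 27.9 CPM in Ythdf1 knockout cells and 17.5, 18.3 and 18.9 CPM in control cells. It rose 1.55-fold in Ythdf1 knockout cells (0.64 ± 0.09; adjusted p = 0.00034) and was lower in Usp5 than in Ythdf1 knockout cells (-0.46 ± 0.09; adjusted p = 0.00201). In Usp5 knockout cells it did not pass (adjusted p = 0.21), but it was called higher with a correction for GC content and gene length (0.26; adjusted p = 0.0393). Cyp2d22 averaged 0.671 ± 0.251 CPM in Usp5 knockout, 1.07 ± 0.133 CPM in Ythdf1 knockout and 1.03 ± 0.295 CPM in control cells (SD, n = 3 each) and was called in no comparison. Without Usp5 knockout replicate 3 it was called lower in Usp5 than in Ythdf1 knockout cells (adjusted p = 0.0496).

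Of the 5 tested genes of family 4, whose Cyp4f members hydroxylate leukotrienes and long fatty acids, 1 was higher in Usp5 knockout and 4 were higher in Ythdf1 knockout cells against control, and none was lower, beside 9.96% and 23.7% of all genes called higher. Cyp4f17 had 7.68, 8.01 and 8.44 CPM in Usp5 knockout cells, 13.7, 14.3 and 12 CPM in Ythdf1 knockout cells and 7.94, 7.52 and 7.29 CPM in control cells. Cyp4f13 had 3.78, 4.09 and 5.05 CPM in Usp5 knockout cells, 7.55, 7.43 and 8.58 CPM in Ythdf1 knockout cells and 4.89, 4.41 and 3.30 CPM in control cells. Cyp4v3, the mouse counterpart of the gene mutated in human Bietti corneoretinal dystrophy, had 12.1, 13.8 and 15.3 CPM in Usp5 knockout cells, 22.7, 24.5 and 23.1 CPM in Ythdf1 knockout cells and 12.1, 12.6 and 17.2 CPM in control cells. For all 3 genes the Ythdf1 knockout libraries lay above the other 6, and Usp5 knockout and control libraries overlapped. The rises in Ythdf1 knockout cells were 1.76-fold for Cyp4f17 (log2 fold change 0.81 ± 0.11; edgeR adjusted p = 0.000206), 1.85-fold for Cyp4f13 (0.89 ± 0.17; adjusted p = 0.00188) and 1.68-fold for Cyp4v3 (0.75 ± 0.14; adjusted p = 0.00168). Usp5 knockout cells had less of all 3 than Ythdf1 knockout cells, with log2 fold changes of -0.73 ± 0.11, -0.87 ± 0.17 and -0.78 ± 0.14 (adjusted p = 0.000334, 0.00211 and 0.00134). Cyp4v3 shares 8.2% of its exon bases with the protein-coding gene Gm45753 on the same strand.

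Cyp4b1, which activates plant toxins in lung, had 5.82, 5.60 and 6.05 CPM in Usp5 knockout cells, 4.92, 4.56 and 4.87 CPM in Ythdf1 knockout cells and 3.33, 3.78 and 3.5 CPM in control cells. The 3 groups did not overlap, but the difference between the knockouts did not pass (log2 fold change 0.28 ± 0.12; edgeR adjusted p = 0.0722). That difference was called with library sizes alone, with a gene length correction and with a correction for GC content and gene length (adjusted p = 0.0482, 0.0251 and 0.0126). Cyp4b1 rose 1.64-fold in Usp5 knockout cells (0.72 ± 0.12; edgeR adjusted p = 0.00224) and 1.35-fold in Ythdf1 knockout cells (0.43 ± 0.12; adjusted p = 0.014). The second call was lost with no filter on low counts (adjusted p = 0.12), with library sizes alone (adjusted p = 0.094), with a correction for GC content and gene length (adjusted p = 0.0515), without control replicate 1 (adjusted p = 0.0531) and without Ythdf1 knockout replicate 1 or 3 (adjusted p = 0.0694 and 0.0659). Cyp4f16, the fourth most abundant member in control cells, averaged 18.4 ± 1.39 CPM in Usp5 knockout, 20.7 ± 2.74 CPM in Ythdf1 knockout and 19.7 ± 2.99 CPM in control cells and was called in no comparison (adjusted p = 0.638, 0.699 and, between the knockouts, 0.319). It is 96.1% identical to Cyp4f37 over 71.7% of its transcript.

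Of the 5 tested genes of bile acid, sterol and steroid metabolism, 3 were lower in Usp5 knockout cells, beside 9.8% of all genes called lower. In Ythdf1 knockout cells 2 were higher and 2 lower, beside 23.7% and 22.8% of all genes. Cyp27a1, the mitochondrial sterol hydroxylase of the acidic bile acid pathway, had 7.66, 7.70 and 7.70 CPM in Usp5 knockout cells, 20.1, 18.5 and 21.4 CPM in Ythdf1 knockout cells and 10.4, 11.5 and 9.5 CPM in control cells. All Usp5 knockout libraries lay below and all Ythdf1 knockout libraries above all control libraries. It fell by 0.45 ± 0.10 on the log2 scale in Usp5 knockout cells (edgeR adjusted p = 0.0128) and rose 1.91-fold in Ythdf1 knockout cells (0.93 ± 0.10; adjusted p = 7.57e-05). Between the knockouts it was lower in Usp5 knockout cells (-1.38 ± 0.10; adjusted p = 5.53e-06). The fall in Usp5 knockout cells lost its call without control replicate 2 (-0.38; adjusted p = 0.0652).

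Cyp7b1, the oxysterol hydroxylase that follows Cyp27a1 in this pathway, had 1.62, 2.80 and 1.89 CPM in Usp5 knockout cells, 5.55, 5.21 and 6.42 CPM in Ythdf1 knockout cells and 4.11, 4.13 and 4.59 CPM in control cells. The Usp5 knockout libraries lay below all others. It fell by 1.03 ± 0.20 on the log2 scale in Usp5 knockout cells (edgeR adjusted p = 0.00547) and was lower there than in Ythdf1 knockout cells (-1.46 ± 0.20; adjusted p = 0.00026). Against control, Ythdf1 knockout cells did not pass (adjusted p = 0.0915), and a fit of these 2 groups alone called it higher (log2 fold change 0.39; adjusted p = 0.0438). Cyp39a1, another oxysterol hydroxylase of bile acid synthesis, averaged 1.59 ± 0.289 CPM in Usp5 knockout, 0.895 ± 0.356 CPM in Ythdf1 knockout and 1.61 ± 0.0801 CPM in control cells. It fell by 0.85 ± 0.28 on the log2 scale in Ythdf1 knockout cells (adjusted p = 0.029) and was higher in Usp5 than in Ythdf1 knockout cells (0.83 ± 0.28; adjusted p = 0.033). Both calls were lost without Ythdf1 knockout replicate 1 (adjusted p = 0.0996 and 0.108) or 3 (0.105 and 0.115) or control replicate 2 (0.0699 and 0.0505). The first was also lost without control replicate 1 (adjusted p = 0.0764) and the second without Usp5 knockout replicate 3 (adjusted p = 0.0979). A correction for GC content and gene length removed both (adjusted p = 0.0889 and 0.0828). A replicate block removed the second (adjusted p = 0.0501).

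Cyp11a1, the side-chain cleavage enzyme that starts steroid hormone synthesis, had 7.47, 6.54 and 7.94 CPM in Usp5 knockout cells, 5.22, 5.05 and 5.25 CPM in Ythdf1 knockout cells and 12.5, 11.3 and 9.34 CPM in control cells. The 3 groups did not overlap, with Ythdf1 knockout libraries lowest. It fell by 0.60 ± 0.13 on the log2 scale in Usp5 knockout cells (edgeR adjusted p = 0.00963) and by 1.10 ± 0.13 in Ythdf1 knockout cells (adjusted p = 0.000149). Usp5 knockout cells kept more of it than Ythdf1 knockout cells (0.50 ± 0.14; adjusted p = 0.012). Cyp21a1, the steroid hydroxylase needed for cortisol-type hormones, went another way. It had 1.10, 0.455 and 1.39 CPM in Usp5 knockout cells, 3.66, 3.10 and 3.63 CPM in Ythdf1 knockout cells and 1.20, 0.929 and 0.604 CPM in control cells. Its Ythdf1 knockout libraries lay above the other 6. It rose 3.70-fold in Ythdf1 knockout cells (1.89 ± 0.34; adjusted p = 0.00142) and was lower in Usp5 than in Ythdf1 knockout cells (-1.81 ± 0.35; adjusted p = 0.0018). Usp5 knockout cells did not pass against control (adjusted p = 0.91). Cyp21a1 shares 4.8% of its exon bases with the pseudogene Tnxa on the opposite strand.

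Among the vitamin D and retinoid P450 genes, 2 of 6 were tested. Cyp27b1, which makes the active vitamin D hormone, had 0.376, 0.490 and 0.424 CPM in Usp5 knockout cells, 0.962, 0.919 and 1.10 CPM in Ythdf1 knockout cells and 0.422, 0.488 and 0.242 CPM in control cells. The Ythdf1 knockout libraries lay above the other 6. It rose 2.48-fold in Ythdf1 knockout cells (1.31 ± 0.30; edgeR adjusted p = 0.00472) and was lower in Usp5 than in Ythdf1 knockout cells (-1.21 ± 0.30; adjusted p = 0.0076). Cyp2r1, which carries out the preceding step in liver, averaged 1.95 ± 0.451 CPM in Usp5 knockout, 1.38 ± 0.372 CPM in Ythdf1 knockout and 1.99 ± 0.368 CPM in control cells and was called in no comparison. Cyp20a1, a P450 with no known substrate, had 27.4, 23.8 and 29.1 CPM in Usp5 knockout cells, 19.4, 20.0 and 20.0 CPM in Ythdf1 knockout cells and 31.4, 32.1 and 26.4 CPM in control cells. Its Ythdf1 knockout libraries lay below the other 6. It fell by 0.60 ± 0.10 on the log2 scale in Ythdf1 knockout cells (adjusted p = 0.00106) and was higher in Usp5 than in Ythdf1 knockout cells (0.44 ± 0.10; adjusted p = 0.0061).

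**Figure D4:**
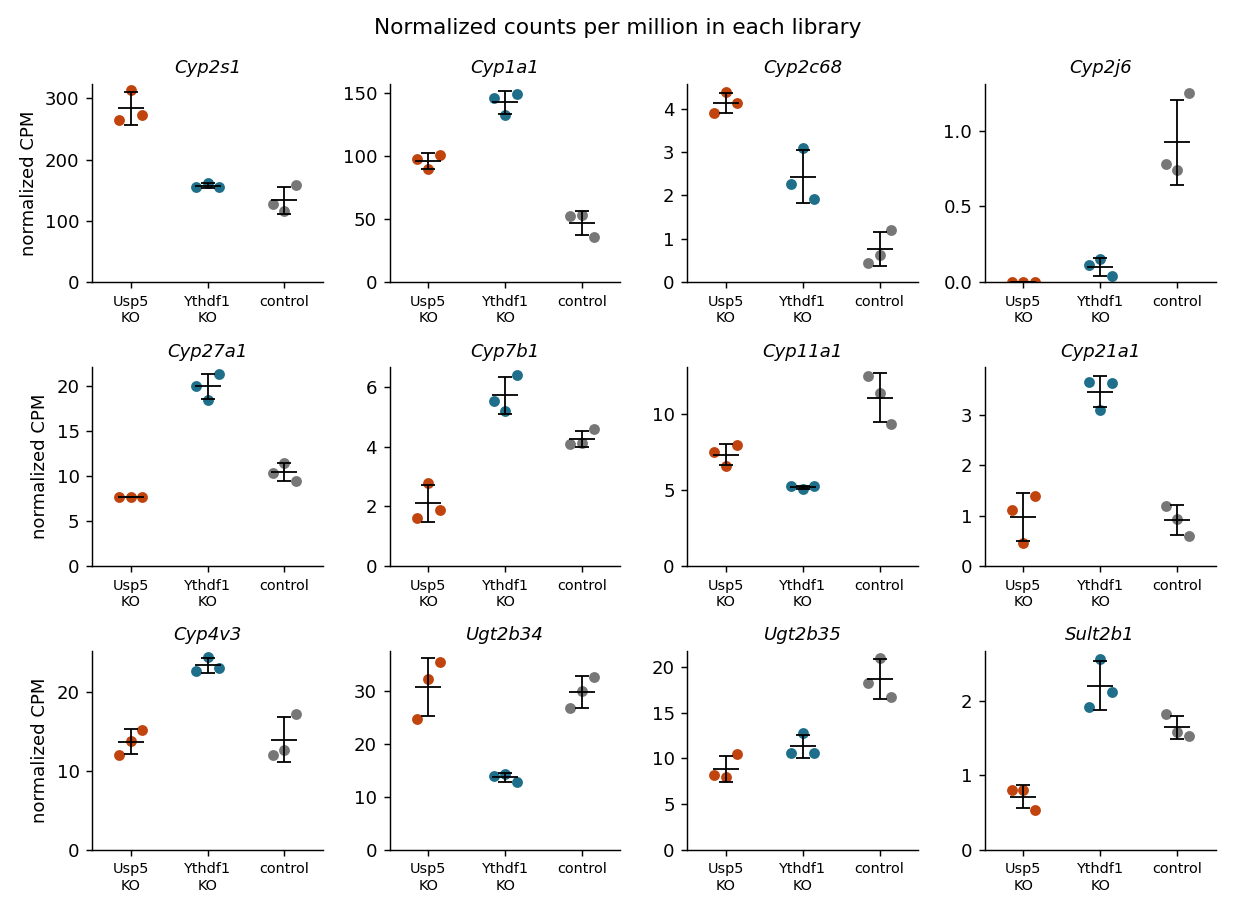
Normalized CPM of 12 members in each library, with Usp5 knockout (left), Ythdf1 knockout (middle) and control (right) in each panel; points are libraries, the long bar is the mean and the error bar the SD of 3 libraries, and each axis starts at 0. Cyp27a1 lies at 7.66 to 7.70 CPM in Usp5 knockout, 18.5 to 21.4 CPM in Ythdf1 knockout and 9.5 to 11.5 CPM in control cells.

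Of the 5 tested UGT genes, Ugt2b34 and Ugt2b35, which lie in the same locus on chromosome 5 and belong to a subfamily that conjugates steroids and bile acids, were the most abundant. Ugt2b34 had 24.7, 32.4 and 35.4 CPM in Usp5 knockout cells, 14, 14.4 and 12.7 CPM in Ythdf1 knockout cells and 26.7, 30.1 and 32.7 CPM in control cells. It fell by 1.12 ± 0.14 on the log2 scale in Ythdf1 knockout cells (edgeR adjusted p = 0.000151) and was higher in Usp5 than in Ythdf1 knockout cells (1.17 ± 0.14; adjusted p = 9.55e-05). Its Usp5 knockout and control libraries overlapped (adjusted p = 0.84). Ugt2b35 had 8.15, 7.94 and 10.5 CPM in Usp5 knockout cells, 10.6, 12.7 and 10.6 CPM in Ythdf1 knockout cells and 18.2, 21 and 16.7 CPM in control cells, so that both knockouts lay below every control library. It fell by 1.08 ± 0.14 in Usp5 knockout cells (adjusted p = 0.00049) and by 0.73 ± 0.14 in Ythdf1 knockout cells (adjusted p = 0.00193). The Ythdf1 call was lost with a correction for GC content and gene length (-0.27; adjusted p = 0.196). Between the knockouts Ugt2b35 did not pass (-0.35 ± 0.14; adjusted p = 0.0615). It was called lower in Usp5 knockout cells with a correction for gene length or for GC content and length (adjusted p = 0.0193 and 0.00514). The same held without Usp5 knockout replicate 3 or control replicate 3 (adjusted p = 0.0197 and 0.0446). Ugt2b1, a main UGT of mouse liver, had 62 counts in Usp5 knockout, 19 in Ythdf1 knockout and 35 in control libraries. It was higher in Usp5 than in Ythdf1 knockout cells (1.47 ± 0.53; adjusted p = 0.0432). That call was lost without Usp5 knockout replicate 2 or 3 (adjusted p = 0.162 and 0.0721), Ythdf1 knockout replicate 2 or 3 (0.113 and 0.0885) or control replicate 1 or 2 (0.0577 and 0.0572). It was also lost with a fit of the 2 groups compared, a replicate block and a correction for GC content and gene length (adjusted p = 0.0544, 0.0763 and 0.108). Under limma-voom it was lost as well (adjusted p = 0.0533).

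Genes of the Ugt1 locus on chromosome 1 have their own first exons and share the others, and Ugt1a6a shares at least 30.4% and Ugt1a6b at least 55.0% of their exon bases with every other Ugt1a gene, so that the split of counts among them is uncertain. Ugt1a6a, which conjugates planar phenols, had 0.517, 0.595 and 0.925 CPM in Usp5 knockout cells, 2.11, 1.76 and 1.74 CPM in Ythdf1 knockout cells and 0.978, 0.789 and 0.805 CPM in control cells. It rose 2.17-fold in Ythdf1 knockout cells (1.11 ± 0.25; edgeR adjusted p = 0.00465) and was lower in Usp5 than in Ythdf1 knockout cells (-1.48 ± 0.26; adjusted p = 0.00113). Ugt1a6b had 9 counts in Usp5 knockout, 43 in Ythdf1 knockout and 36 in control libraries and was lower in Usp5 than in Ythdf1 knockout cells (-2.49 ± 0.65; adjusted p = 0.00965). Neither knockout passed against control (adjusted p = 0.0872 and 0.284 for Usp5 and Ythdf1). Without Usp5 knockout replicate 3, Ugt1a6b was called lower in Usp5 knockout than in control cells (-2.49; adjusted p = 0.0493). Ugt1a7c, whose sequence is 98.9% identical to that of Ugt1a6b over the whole Ugt1a6b transcript, had 0, 0 and 19 counts in Usp5 knockout, Ythdf1 knockout and control libraries. It was too low to be tested. Set to a floor of 3 counts over the group, it lay 5.45-fold below control in Usp5 and 4.47-fold in Ythdf1 knockout cells. The control counts were taken as exact there. Without Usp5 knockout replicate 1 the first value was 3.06, and without Ythdf1 knockout replicate 1 the second was 2.95.

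Of the 21 sulfotransferase genes, 3 were tested and 12 had 0 counts. Sult2b1, which sulfates cholesterol and pregnenolone, had 0.799, 0.805 and 0.539 CPM in Usp5 knockout cells, 1.92, 2.57 and 2.12 CPM in Ythdf1 knockout cells and 1.82, 1.58 and 1.53 CPM in control cells. The groups did not overlap, with Usp5 knockout libraries lowest. It fell by 1.19 ± 0.23 on the log2 scale in Usp5 knockout cells (edgeR adjusted p = 0.00519) and was lower in Usp5 than in Ythdf1 knockout cells (-1.60 ± 0.23; adjusted p = 0.000316). Ythdf1 knockout cells did not pass against control (adjusted p = 0.131). It shares 6.2% of its exon bases with Lmtk3 on the opposite strand. Sult1b1, a sulfotransferase of phenols and thyroid hormones, had 0.235, 0.245 and 0.347 CPM in Usp5 knockout cells, 0.777, 0.728 and 0.907 CPM in Ythdf1 knockout cells and 0.356, 0.348 and 0.121 CPM in control cells, from 26, 64 and 34 counts. The Ythdf1 knockout libraries lay above the other 6. It rose 2.74-fold in Ythdf1 knockout cells (1.45 ± 0.36; adjusted p = 0.00827) and was lower in Usp5 than in Ythdf1 knockout cells (-1.56 ± 0.38; adjusted p = 0.0069). Sult1c2 averaged 1.91 ± 0.293 CPM in Usp5 knockout, 1.46 ± 0.382 CPM in Ythdf1 knockout and 2.52 ± 0.374 CPM in control cells. It fell by 0.79 ± 0.24 in Ythdf1 knockout cells (adjusted p = 0.019). This was lost without control replicate 2 (adjusted p = 0.0799), without Ythdf1 knockout replicate 3 (adjusted p = 0.0649) and with a correction for GC content and gene length (adjusted p = 0.0627).

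The genes that serve these enzymes or act beside them were counted in 7 lists, to be read beside the 19.8% and 46.5% of all genes called. Of 27 tested nuclear receptors and other regulators, 6 were higher and 3 lower in Usp5 knockout cells, and 10 were higher and 1 lower in Ythdf1 knockout cells (median log2 fold changes 0.08 and 0.12). Nr5a2, a nuclear receptor that drives bile acid genes, averaged 2.66 ± 0.28 CPM in Usp5 knockout, 8.99 ± 0.90 CPM in Ythdf1 knockout and 15.9 ± 2.9 CPM in control cells. It fell by 2.58 ± 0.16 in Usp5 knockout and by 0.82 ± 0.15 in Ythdf1 knockout cells on the log2 scale (edgeR adjusted p = 3.88e-06 and 0.00127). Foxa2, a pioneer factor of liver genes, had the largest rise of the list in Usp5 knockout cells (0.83 ± 0.17; adjusted p = 0.0066), and Cebpb in Ythdf1 knockout cells (1.28 ± 0.12; adjusted p = 3.7e-05). The PXR gene Nr1i2 had 0 counts in all 9 libraries, and the CAR gene Nr1i3 averaged 0.389 CPM in Usp5 knockout, 0.793 CPM in Ythdf1 knockout and 0.883 CPM in control cells. Ahr averaged 119.7 ± 16.4 CPM, 133.8 ± 8.28 CPM and 137.8 ± 14.5 CPM in the same groups. Its partner Arnt averaged 75.3 ± 2.76 CPM, 74.8 ± 4.66 CPM and 68.9 ± 5.51 CPM. Neither was called against control. Of 6 tested AHR targets outside the members, 1 was higher and 2 were lower in Usp5 knockout, and 2 were higher and 1 lower in Ythdf1 knockout cells (medians -0.10 and -0.10). The growth factor gene Areg rose in both (0.99 ± 0.10 and 2.14 ± 0.10; edgeR adjusted p = 0.000114 and 6.47e-07). Serpinb2 fell in both (-0.85 ± 0.14 and -1.52 ± 0.14; adjusted p = 0.00178 and 3.2e-05).

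Of 22 tested genes for electron donors and haem, 3 were higher and 3 lower in Usp5 knockout cells, and 7 were higher and 2 lower in Ythdf1 knockout cells (medians 0.0069 and 0.10). Por, the reductase that feeds electrons to microsomal P450 enzymes, averaged 233 ± 21 CPM in Usp5 knockout, 230.4 ± 8.1 CPM in Ythdf1 knockout and 183 ± 29 CPM in control cells. It rose in Ythdf1 knockout cells (0.33 ± 0.11; edgeR adjusted p = 0.0344), while Usp5 knockout cells did not pass (adjusted p = 0.0551). Hmox1, which degrades haem, was lower in Usp5 knockout and higher in Ythdf1 knockout cells. It averaged 25.7 ± 0.21 CPM in Usp5 knockout, 149 ± 5.4 CPM in Ythdf1 knockout and 56.4 ± 3.2 CPM in control cells (log2 fold changes -1.13 ± 0.07 and 1.40 ± 0.07; adjusted p = 4.12e-06 and 6.79e-07). Alas1, the first enzyme of haem synthesis, passed against control in neither knockout. Blvrb, which reduces the products of haem breakdown, had the largest rise of the list in Usp5 knockout cells (0.44 ± 0.09; adjusted p = 0.00643), and the electron carrier gene Cyb5b the largest fall in Ythdf1 knockout cells (-0.31 ± 0.08; adjusted p = 0.00809).

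Of 13 tested genes that supply cofactors for conjugation, 2 were higher and 2 lower in Usp5 knockout cells, and 4 were higher and 7 lower in Ythdf1 knockout cells (medians -0.13 and -0.26). Slc26a2, a sulfate importer, averaged 150.2 ± 11 CPM in Usp5 knockout, 81.7 ± 4.1 CPM in Ythdf1 knockout and 53.5 ± 3.0 CPM in control cells. It had the largest rise of the list in Usp5 knockout cells (1.49 ± 0.08; edgeR adjusted p = 2.15e-06). Papss2, which makes the activated sulfate donor, fell by 0.93 ± 0.18 in Usp5 knockout and 0.70 ± 0.18 in Ythdf1 knockout cells (adjusted p = 0.00482 and 0.00792), and the more abundant Papss1 fell by 0.46 ± 0.10 in Ythdf1 knockout cells (adjusted p = 0.00455). Ugdh, which makes UDP-glucuronic acid, averaged 376 ± 33 CPM in Usp5 knockout, 266 ± 6.5 CPM in Ythdf1 knockout and 447 ± 12 CPM in control cells. It fell by 0.75 ± 0.08 in Ythdf1 knockout cells (adjusted p = 8.2e-05). The largest rise in Ythdf1 knockout cells was that of Slc35d1, which carries UDP-glucuronic acid into the endoplasmic reticulum (0.70 ± 0.07; adjusted p = 6e-05). The largest fall there was that of Bpnt2, a phosphatase that clears a by-product of sulfation (-1.14 ± 0.12; adjusted p = 5.02e-05).

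Of 27 tested enzymes of other oxidation, reduction and hydrolysis, 3 were higher and 10 lower in Usp5 knockout cells, and 9 were higher and 4 lower in Ythdf1 knockout cells (medians -0.27 and 0.20). In Usp5 knockout cells the flavin monooxygenase gene Fmo2 had the largest rise (1.04 ± 0.13; edgeR adjusted p = 0.000438) and the xanthine dehydrogenase gene Xdh the largest fall (-0.92 ± 0.10; adjusted p = 0.000168). In Ythdf1 knockout cells the carboxylesterase gene Ces2e had the largest rise (1.47 ± 0.11; adjusted p = 1.1e-05) and Aldh1a7 the largest fall (-0.92 ± 0.12; adjusted p = 0.00018). Of 7 other transferases tested, 2 were higher and 1 lower in Usp5 knockout cells, with Tst at -1.06 ± 0.21 (edgeR adjusted p = 0.00548). Ythdf1 knockout cells had 1 higher, the nicotinamide methyltransferase gene Nnmt (1.06 ± 0.16; adjusted p = 0.000425). Their medians were -0.23 and -0.013. Of 15 tested drug and bile acid transporters, 1 was higher and 6 lower in Usp5 knockout cells, and 2 were higher and 6 lower in Ythdf1 knockout cells (medians -0.58 and -0.12). The efflux pump gene Abcg2 fell by 1.21 ± 0.09 in Usp5 knockout cells (adjusted p = 1.62e-05), where Abcc5 rose by 0.56 ± 0.07 (adjusted p = 0.000571). Abcb1b in Ythdf1 knockout cells fell by 0.45 ± 0.09 (adjusted p = 0.00223) and the prostaglandin transporter gene Slco2a1 rose by 0.60 ± 0.12 (adjusted p = 0.00242).

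Between the knockouts 48.5% of all genes were called, and the lists were counted with Usp5 knockout over Ythdf1 knockout. Of 27 oxidation, reduction and hydrolysis enzymes 4 were higher and 17 lower, with Fmo2 (0.96 ± 0.13; edgeR adjusted p = 0.000273) and Ces2e (-1.90 ± 0.11; adjusted p = 1.43e-06) at the ends. Of 22 electron donor and haem genes 4 were higher and 9 lower, with Cpox (0.44 ± 0.09; adjusted p = 0.00353) and Hmox1 (-2.53 ± 0.07; adjusted p = 1.36e-08) at the ends. Of 27 regulators 3 were higher and 9 lower, with Onecut1 (0.76 ± 0.25; adjusted p = 0.03) and Nr5a2 (-1.76 ± 0.16; adjusted p = 1.92e-05) at the ends. Of 15 transporters 2 were higher and 8 lower, with Abcc5 (0.95 ± 0.07; adjusted p = 7.65e-06) and Abcg2 (-0.82 ± 0.09; adjusted p = 8.12e-05) at the ends. Of 13 cofactor genes 6 were higher and 4 lower, with Slc26a2 (0.88 ± 0.08; adjusted p = 2.24e-05) and the sulfate donor carrier gene Slc35b2 (-0.60 ± 0.12; adjusted p = 0.00216) at the ends. Of 6 AHR targets 1 was higher, Serpinb2 (0.66 ± 0.14; adjusted p = 0.00336), and 2 were lower, with Areg at -1.15 ± 0.10 (adjusted p = 1.62e-05). Of 7 other transferases 2 were lower, with Nnmt at -1.40 ± 0.16 (adjusted p = 8.01e-05).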

How the data were processed

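RNA of 9 samples was sequenced from poly(A) libraries after DNase treatment. The authors deposited 1 table of estimated counts per gene, written as whole numbers and taken as rounded estimates, with a length for each gene. The submitters' processing notes name fastp 0.23.2, STAR 2.7.10a, Salmon 1.9.0 and the mouse genome GRCm39, without roles; the annotation release and the use of strand are not given in the sources used here.

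The test was the quasi-likelihood test of edgeR 4.0.16, run under R 4.3.3 (TMM, filterByExpr, glmQLFit and glmQLFTest, all 9 samples, group as the only term), with Benjamini-Hochberg adjustment over 13661 genes. The procedure was run on simulated counts in which a small set of genes was changed in the Usp5 knockout group alone. Changes as broad as those called here were not simulated. TPM used the deposited lengths. A ± after a CPM or TPM value is the SD over 3 samples, and after a log2 fold change its standard error. Sequence similarity was found with blastn 2.17.0 on GENCODE transcripts of an older mouse build, matched by gene identifier, and 111 members, 22 of them tested, had a RefSeq promoter entry. Named were all members called in at least 1 comparison or with at least 1 TPM in a group, 15 major liver enzymes by level, and in each further list the called genes with the largest rise and fall at 5 CPM or more in the higher group, plus a fixed set given as values. A gene outside the members that this rule names is not reported here. Other members named by count were chosen after their values were seen. The members and lists were chosen with earlier results of these data known. Alternatives were other scalings, DESeq2 1.42.0, limma-voom (limma 3.58.1), other filters and thresholds, fits of the 2 groups compared, a replicate block, length correction and leaving out each sample; a correction for GC content and length together, and TPM from the deposited effective lengths, were added after seeing the data.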

Additional observations from a re-analysis of the deposited data

Results flagged for a closer look

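Cyp27a1 was singled out because its change had opposite signs in the knockouts and the difference itself was tested. It had 7.66, 7.70 and 7.70 CPM in Usp5 knockout cells, 20.1, 18.5 and 21.4 CPM in Ythdf1 knockout cells and 10.4, 11.5 and 9.5 CPM in control cells. The log2 fold change of Usp5 knockout over Ythdf1 knockout cells was -1.38 ± 0.10 (SE; edgeR adjusted p = 5.53e-06), with all 3 Usp5 knockout libraries lower than all 3 Ythdf1 knockout libraries. The spread of the Usp5 knockout libraries, an SD of 0.0261 CPM, was smaller than that of the Ythdf1 knockout libraries, 1.43 CPM, and of the control libraries, 0.998 CPM. The Usp5 knockout values came from 326, 220 and 200 counts, and an SD over 3 libraries is imprecise. Whether the spread differs between groups was not tested.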

How the results depend on the processing

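Of 53 calls of a tested member in a comparison, 45 were kept under all 19 alternative fits that tested the member, and 8 were lost under at least 1: Cyp27a1 in Usp5 knockout cells, Ugt2b35, Cyp4b1, Sult1c2 and Cyp39a1 in Ythdf1 knockout cells, and Cyp39a1, Cyp2c68 and Ugt2b1 between the knockouts. None changed direction in these fits. Leaving out each sample in turn gave 11 to 12 members called in Usp5 knockout cells, beside 10.7% to 31.2% of all genes. In Ythdf1 knockout cells 16 to 20 were called, beside 34.6% to 46.3%. Between the knockouts 20 to 25 were, beside 35.7% to 54.7%. With each control sample left out in turn, 19 to 20 members were expressed in control cells. Asking for at least 2-fold, 8 members were called in Usp5 knockout cells, beside 5.64% of all genes. In Ythdf1 knockout cells 9 were, beside 9.15%, and between the knockouts 13, beside 12.1%. Library sizes alone shifted the median of all genes by -0.085 in Usp5 and by -0.14 in Ythdf1 knockout cells, and 12, 18 and 24 members were called, beside 20.9%, 46.4% and 47.9% of all genes. The replicate block called 11, 19 and 20 members, beside 17.2%, 45.4% and 47.3% of all genes; same-numbered samples deviated together only in part (correlations -0.257 to 0.298), so the numbers were not taken as pairs. With the block, Cyp39a1, Cyp2c68 and Ugt2b1 lost their calls between the knockouts (adjusted p = 0.0501, 0.0579 and 0.0763). The correction for GC content and length called 12, 16 and 22, beside 25.4%, 41.9% and 48.2% of all genes, and under it Cyp7b1 was higher in Ythdf1 knockout cells (0.70, adjusted p = 0.014) and Ugt2b35 lower in Usp5 than in Ythdf1 knockout cells (-0.70, adjusted p = 0.00514). It removed the calls of Ugt2b35, Cyp4b1, Sult1c2 and Cyp39a1 in Ythdf1 knockout cells (adjusted p = 0.196, 0.0515, 0.0627 and 0.0889). Between the knockouts it removed those of Cyp39a1, Cyp2c68 and Ugt2b1 (adjusted p = 0.0828, 0.0509 and 0.108). The cause of these differences was not tested. At 0.5 TPM 25 members counted as expressed in control cells, and at 2 TPM 17. Depth limits the 17 members with at least 10 counts in total that were too low to be tested.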

Other observations

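Several members that were too low to be tested, picked after their values were seen, had counts that are given without a test. Sult3a2 had 36 counts in Usp5 knockout, 9 in Ythdf1 knockout and 29 in control libraries. Cyp19a1, the aromatase that makes oestrogens, had 3, 10 and 0 counts, and Ythdf1 knockout replicate 3 held 7 of the 10. Cyp3a16 had 0, 10 and 3 counts. Its transcript is 92.1% identical to that of Cyp3a41a over its whole length.

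Of 41 rows of the same gene families that are not protein coding, 3 had at least 10 counts in total. Cyp4f41-ps, a transcribed pseudogene of the Cyp4f group, was the 1 that could be tested. It had 50 counts in Usp5 knockout, 35 in Ythdf1 knockout and 51 in control libraries and was called in no comparison (edgeR adjusted p = 0.779 for Usp5 knockout and 0.921 for Ythdf1 knockout against control).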
